A study of Mus musculus with 10 samples.

Results

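Spliced reads that pair 2 annotated splice sites in a combination the annotation does not list were described in mouse cerebral cortex with and without Usp7 in glutamatergic neurons. These unannotated pairings are the introns that the deposited table of the splicing tool leafcutter marks as a new pair of annotated sites, and they number 1874 of 32135 introns (5.83%). They lie in 1587 of the 10838 clusters, a cluster being a set of introns that share splice sites, and carry 1391 gene names. Bulk RNA-seq was done on 5 Usp7 WT; Trp53+/- and 5 Usp7 cKO; Trp53+/- mice aged 18 days, where cKO is a conditional knockout. All animals of both groups were heterozygous for Trp53, the gene of p53. The knockout was made by crossing mice with a floxed Usp7 gene (Usp7 fl/fl) to NEX-cre mice, whose Cre recombinase acts in glutamatergic neurons, so the other cells of the tissue keep Usp7. Whether the Usp7 WT animals carried Cre is not given in the labels. In such bulk tissue, fewer cells of a type and less RNA per cell cannot be told apart. Each library holds the cortex of 1 animal, and the labels say that the animals were matched in pairs by litter and sex. They do not say which animals form a pair, so no litter term was fitted.

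An intron is removed by joining a 5′ splice site (the donor, at the end of one exon) to a 3′ splice site (the acceptor, at the start of a later exon). When a donor is paired with an acceptor further downstream than the next one, every exon in between is left out, which is called exon skipping. An exon whose length is divisible by 3 can be skipped without shifting the reading frame of the exons that follow. Brain tissue uses many alternative exons, among them microexons of a few codons in synaptic and cytoskeletal proteins, under the control of RNA-binding proteins such as the RBFOX, NOVA, CELF, PTBP and SRRM4 families. USP7 takes ubiquitin off other proteins and so belongs to the deubiquitinases.

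The exons that the unannotated pairings discussed below leave out are shown here because they show what is lost from the RNA. Each line gives the exon in capitals between the last 15 bases of the exon before it and the first 15 bases of the exon after it, in lower case. An unannotated pairing joins the lower-case stretches directly. Sequences are those of GENCODE M21 transcripts, GRCm38, 5′ to 3′ on the strand of the gene. The Usp7 exon (chr16:8707638-8707746, minus strand) is coding exon 7 of 32 and has 109 bases, so leaving it out shifts the frame. The 2 exons of Rian, a non-coding RNA, have 88 bases (chr12:109642565-109642652, plus strand) and 44 bases (chr12:109656788-109656831, plus strand). The second also has a more used form with a later end (109656840), which is not printed. The Tnrc6c exon (chr11:117741645-117741818, plus strand) has 174 bases. The Nbea microexon (chr3:55994048-55994056, minus strand) has 9 bases, and that of Clasp2 (chr9:113860120-113860137, plus strand) has 18. The last 3 are coding and divisible by 3.
Usp7 exon: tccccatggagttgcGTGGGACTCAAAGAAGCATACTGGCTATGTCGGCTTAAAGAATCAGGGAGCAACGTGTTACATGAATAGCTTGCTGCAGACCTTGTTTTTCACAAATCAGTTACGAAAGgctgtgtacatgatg
Rian exon of 88 bases: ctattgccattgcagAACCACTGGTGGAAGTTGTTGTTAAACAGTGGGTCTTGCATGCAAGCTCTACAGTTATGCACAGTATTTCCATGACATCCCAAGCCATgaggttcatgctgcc
Rian exon of 44 bases: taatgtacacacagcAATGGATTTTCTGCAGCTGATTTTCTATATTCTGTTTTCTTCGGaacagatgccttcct
Tnrc6c exon: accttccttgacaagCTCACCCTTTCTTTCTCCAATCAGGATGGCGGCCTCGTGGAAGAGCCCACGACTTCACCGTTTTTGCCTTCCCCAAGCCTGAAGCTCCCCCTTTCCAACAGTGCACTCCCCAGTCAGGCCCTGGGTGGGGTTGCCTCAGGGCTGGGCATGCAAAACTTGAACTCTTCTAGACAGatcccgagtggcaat
Nbea microexon: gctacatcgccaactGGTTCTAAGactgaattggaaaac
Clasp2 microexon: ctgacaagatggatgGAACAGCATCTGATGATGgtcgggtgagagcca

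Some facts of the libraries bear on all results. Intron reads used per library ran from 3388310 to 4367711 and bin reads from 42628526 to 51797145. All intron counts of Usp7 WT replicate 1 were even and were halved. Sex-linked RNAs went against the labelled sex in the libraries labelled Usp7 WT replicate 2 and Usp7 cKO replicate 1, called the 2 discordant libraries below. By these RNAs, Usp7 WT replicates 1 and 5 and Usp7 cKO replicates 1, 2, 3 and 5 were female and the others male. The groups were then not matched by sex, and sex is in part confounded with genotype. The main fits used the labelled sex. Without the 2 discordant libraries edgeR called 5 unannotated pairings, as with them, and DESeq2 15 (12 higher, 3 lower) in place of 28. The DESeq2 calls of Usp7, Rian (88 bases), Tpt1, Nbea, Wdr7, Hnrnpc and Synj1 held without these 2 libraries.

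Set against the introns of GENCODE M21, most unannotated pairings were exon skipping. Of the 1874, 1309 (69.9%) joined around 1 or more whole exons of a single transcript. A further 286 (15.3%) are listed in GENCODE M21 as an intron of some transcript, 116 of them in its basic set, so these are unannotated only against the annotation the authors used. Another 212 (11.3%) paired sites that no single transcript holds but that belong to the same gene. Sites of different genes were paired by 63 (3.36%), and for 4 a site was not found in GENCODE M21. Exon skipping was mostly of single exons, with 1123 pairings around 1 exon, 133 around 2 and 53 around 3 or more, up to 12. The genes with the most unannotated pairings were Gprasp2 (12) and, with 8 each, the long non-coding RNAs Firre and Miat and the active-zone scaffold gene Rims1.

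Unannotated pairings were long and rarely used. The median distance spanned was 7614.5 bp against 2556 bp for annotated introns. A pairing took a median of 3.51% of the reads of its cluster, its share of cluster, against 38.4% for annotated introns. Its median count was 9.4 reads per library. Of the 1874, 338 stayed under 1% of their cluster on average and 437 took over 10%. Only 33 took over 50%, and 1306 had at least 1 read in all 10 libraries.

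Length and frame of the skipped exons were set beside those of all coding exons. Of the 1123 single exons, 863 were wholly coding and had a median length of 111 bases, against 123 bases for 165262 distinct internal coding exons of protein-coding transcripts. A length divisible by 3 was found for 454 of the 863 (52.6%), against 41.1% of all internal coding exons. Microexons of at most 27 bases made up 35 of the 863 (4.06%) against 1.05%, and 34 of these 35 were divisible by 3. Beyond microexons the share divisible by 3 was above that of all coding exons in each length class plotted, for example 66.0% against 47.3% at 28 to 51 bases and 45.3% against 40.6% at 100 to 123 bases. These shares describe the annotation of the members, and no test was run on them.

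**Figure D1:**
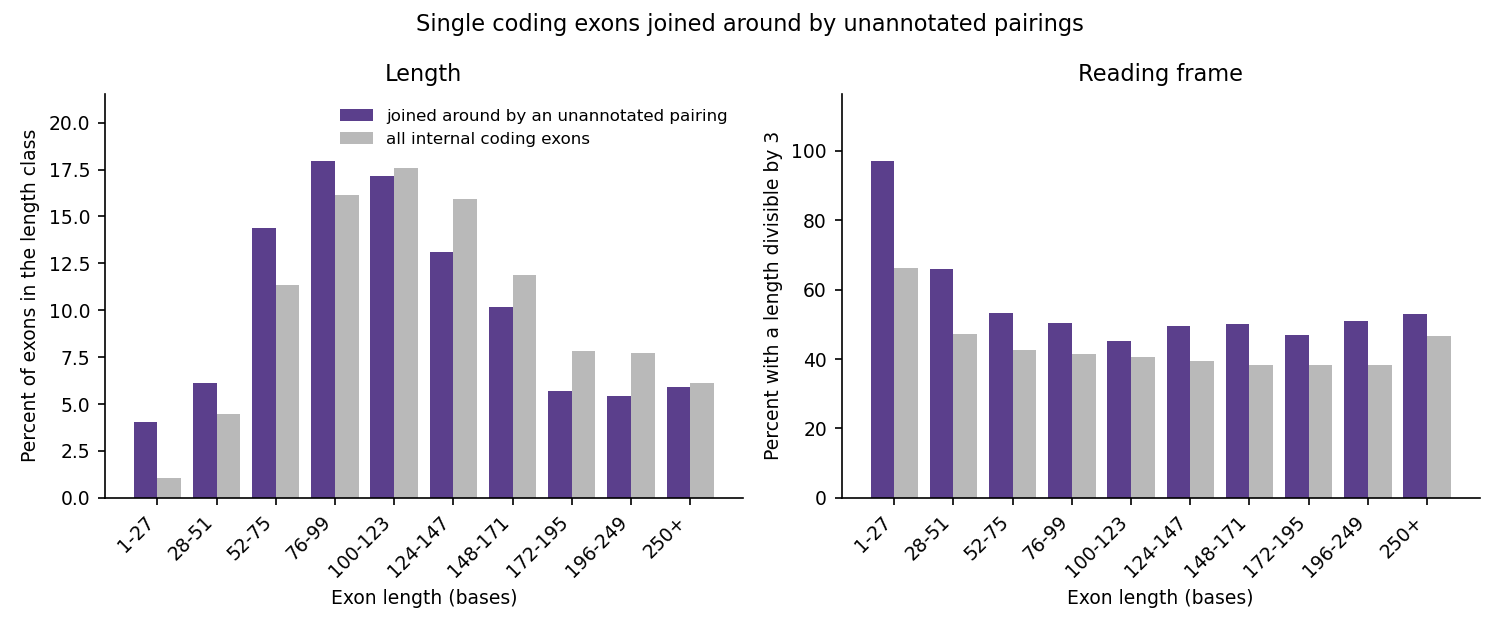
Single coding exons joined around by unannotated pairings (863, purple) and all internal coding exons of GENCODE M21 (165262, grey), by exon length in bases. The left bars give the percent of exons in each length class, and the right bars the percent with a length divisible by 3, which is 97.1% against 66.4% in the class of 1 to 27 bases.

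Percent skipping puts the skipping reads over the sum of those reads and the mean of the 2 introns that flank the exon. Other introns of the cluster do not enter it. Reads that include the exon through another splice site are therefore left out, and skipping can read too high. Counting pairings around 1 exon whether or not GENCODE M21 lists them, both flanking introns were in the same cluster for 1284 of 1367. The cluster held exactly 3 introns for 725 of them. Percent skipping had a median of 7.94% over these 1284, with quartiles of 3.31% and 18.4%. It was under 10% for 730 exons, between 10% and 50% for 484 and over 50% for 70. Coding exons divisible by 3 had a median of 8.94% (536 exons) and the others 6.82% (499 exons). The median was 7.70% over Usp7 WT means and 7.86% over Usp7 cKO means. Skipping was more than 10 percentage points higher in Usp7 cKO for 44 exons and more than 10 points lower for 49, a description that includes exons with few reads.

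**Figure D2:**
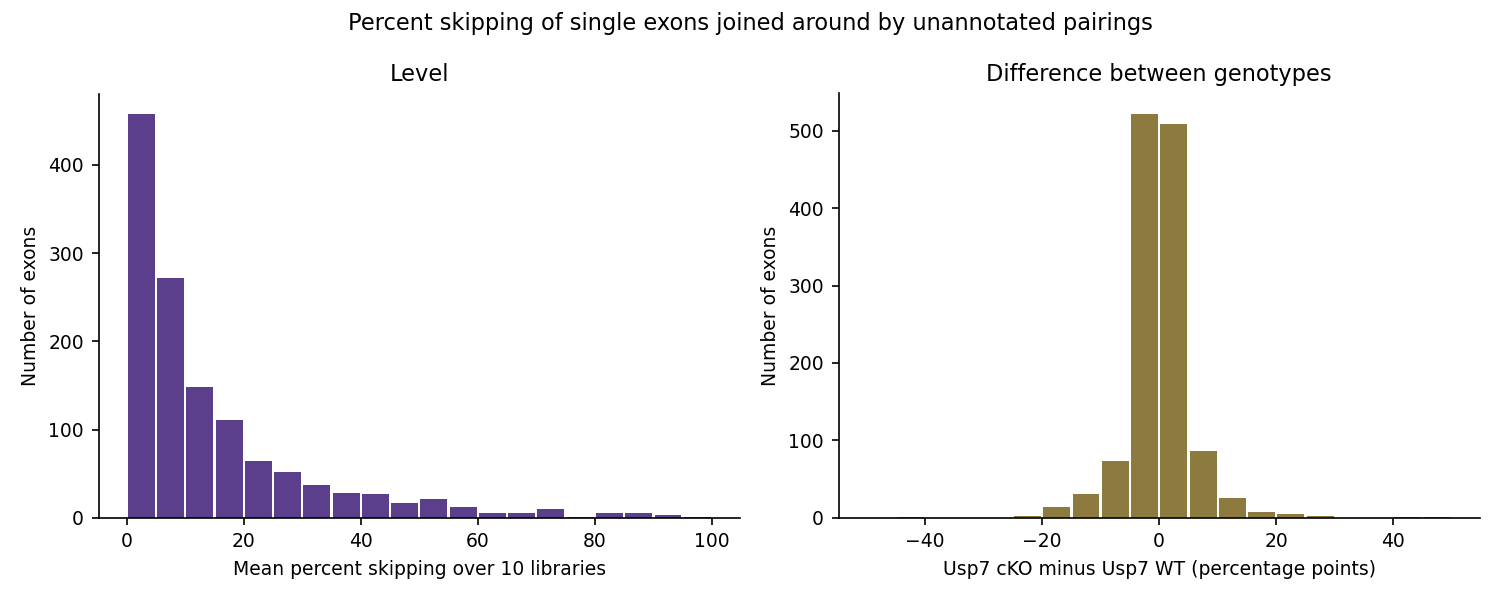
Percent skipping of the 1284 single exons with both flanking introns in the cluster. The left panel counts exons by mean percent skipping over the 10 libraries, most of them under 10%, and the right panel counts them by the difference of the group means in percentage points, which lies around 0, with Usp7 the highest at 45.4 points.

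As a class, the use of unannotated pairings did not differ between genotypes by more than the spread between animals. They took 1.162, 1.105, 1.119, 1.098 and 1.119% of all spliced reads in Usp7 WT replicates 1 to 5. In Usp7 cKO replicates 1 to 5 they took 1.097, 1.138, 1.123, 1.112 and 1.122%. The groups overlapped, with means of 1.12 ± 0.0247% (SD, n = 5) and 1.12 ± 0.0153% (difference -0.0023 points, exact permutation p = 0.873, two-sided). Of the reads of their own clusters they took 4.32 ± 0.0805% in Usp7 WT and 4.25 ± 0.0546% in Usp7 cKO (exact permutation p = 0.190). The unweighted mean share of cluster, over 1868 pairings whose cluster had at least 10 reads in every library, was 7.91 ± 0.200% and 7.88 ± 0.200% (exact permutation p = 0.849). With 5 against 5 animals the smallest two-sided p is 0.00794. These were 3 of 17 measures compared in the same way, and none had a Benjamini-Hochberg adjusted p under 0.05.

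**Figure D3:**
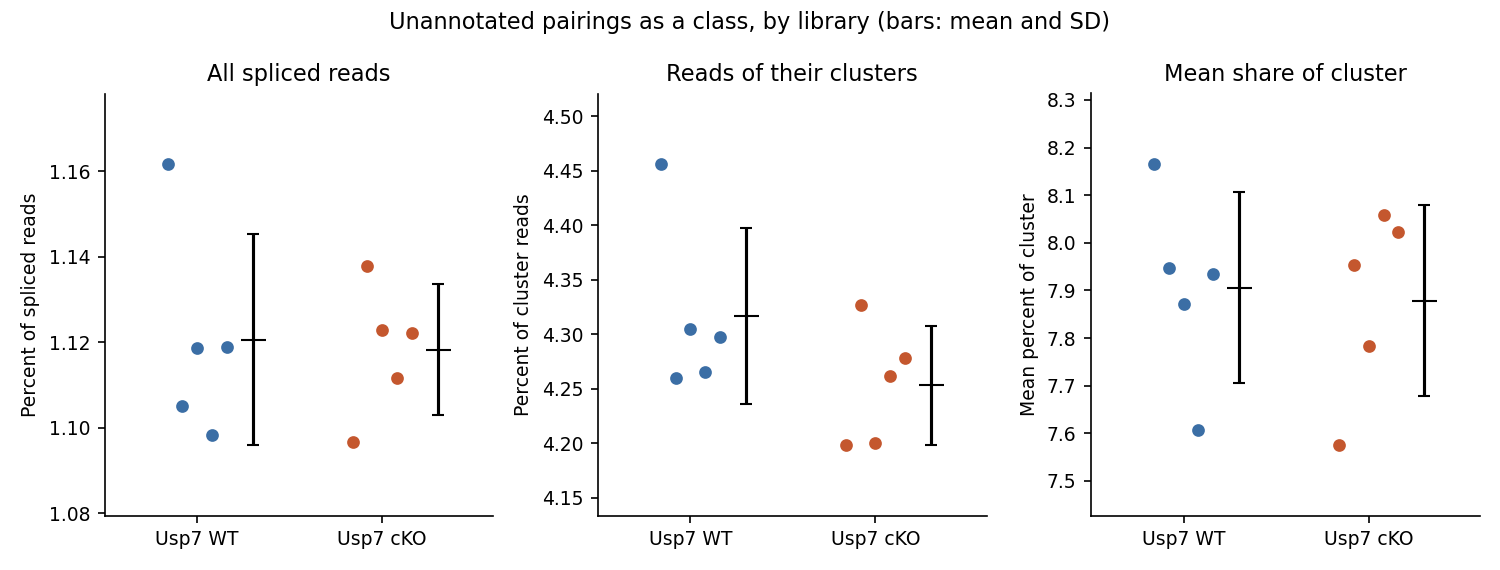
Unannotated pairings as a class in the 10 libraries, as percent of all spliced reads, percent of the reads of their own clusters and mean percent of cluster. Each point is 1 library and the bar beside each group is the mean with its SD. The axes do not start at 0, and the groups overlap in all 3 panels.

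No kind of pairing passed the adjustment either. Exon skipping took 0.636 ± 0.0160% of spliced reads in Usp7 WT and 0.634 ± 0.0161% in Usp7 cKO (exact permutation p = 0.873). Pairings of sites from different transcripts of a gene took 0.143 ± 0.0028% and 0.151 ± 0.00676% (exact permutation p = 0.0397, adjusted p = 0.169 over the 17 measures). Pairings listed in GENCODE M21 took 0.290 ± 0.00492% and 0.289 ± 0.00375% (exact permutation p = 0.706). Annotated introns took 91.03 ± 0.153% and 90.5 ± 0.349% of spliced reads (exact permutation p = 0.0159, adjusted p = 0.169).

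Usage of each pairing was tested with edgeR as its change against that of its whole cluster, the pairing itself included. This was done over all 30733 introns with enough reads, 1735 unannotated pairings among them. The other 139 had a mean count under 5 or no other such intron in their cluster, and were not tested. The test called 5 of the 1735 at an adjusted p under 0.05, 3 higher and 2 lower in Usp7 cKO. Over all introns it called 36, or 0.117%, of which 0.0586% were higher and 0.0586% lower. Without adjustment, 138 unannotated pairings (7.95%) had a p under 0.05, against 3.52% of all introns, 8.50% of introns with both sites cryptic (unanchored), 6.14% with a cryptic 5′ site, 4.63% with a cryptic 3′ site, 2.41% of unknown strand and 2.75% of annotated introns. Groups did not overlap for 71 of the 1874 (3.79%), 34 higher and 37 lower, against 3.19% of all introns (1.6% higher and 1.59% lower). Of the 1475 tested clusters with a tested unannotated pairing, 6 were called, against 23 of all 10441 clusters tested (0.220%). In 2 of the 6, those of Rap1gap2 and D430041D05Rik, the intron with the smallest p was a cryptic 5′ and an annotated one, and the unannotated pairing itself had an unadjusted edgeR p of 0.497 and 0.499. With 1 library left out the count of called unannotated pairings ran from 2 to 6, with 2 or 3 without replicate 1, 2, 3 or 4 of the Usp7 WT or 2 or 5 of the Usp7 cKO animals.

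**Figure D4:**
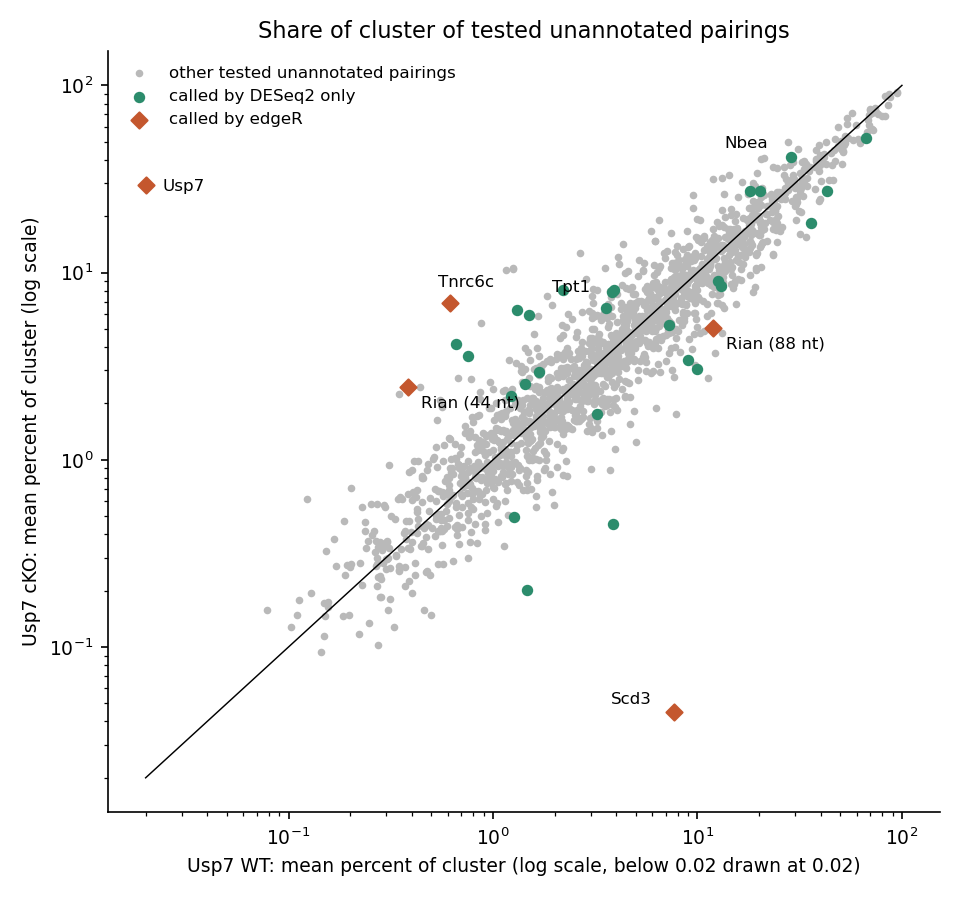
Mean percent of cluster of each tested unannotated pairing in Usp7 WT (x, log scale) and Usp7 cKO (y, log scale). The line marks equal shares, diamonds were called by edgeR, green points by DESeq2 and not by edgeR, and most of the 1735 lie along the line. Usp7 has no reads in Usp7 WT and is drawn at the lower limit of the axis.

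The clearest unannotated pairing was in Usp7 itself and joins exon 6 to exon 8 (chr16:8706729-8708859). The knockout deletes a floxed part of this gene, so a pairing around deleted exons would follow from the design. Which exons are floxed is not stated here, and this was not tested. Gene-level Usp7 was 53.5, 50.2, 55.7, 48.3 and 61.9 TPM (a read level corrected for gene length and library size) in Usp7 WT replicates 1 to 5 and 31.6, 36.0, 40.9, 35.3 and 40.9 TPM in Usp7 cKO replicates 1 to 5. The groups did not overlap, and the level fell by 0.54 on the log2(TPM + 0.5) scale (SE 0.0766, limma adjusted p = 0.00131). The pairing had 14, 17, 22, 19 and 16 reads in Usp7 cKO and none among 1106 cluster reads in Usp7 WT, which allows a share of up to 0.271%. It was the only unannotated pairing at 0 in all libraries of 1 genotype, and took 29.5 ± 4.99% of the cluster in Usp7 cKO (edgeR adjusted p = 1.3e-08). Both flanking introns had fewer reads in Usp7 cKO. The intron from exon 6 to exon 7 had 115 to 152 reads in Usp7 WT against 15 to 35 in Usp7 cKO, and the intron from exon 7 to exon 8 had 71 to 110 and 10 to 27. Percent skipping of exon 7 was 45.2, 40.5, 55.0, 44.7 and 41.6% in Usp7 cKO replicates 1 to 5, so reads that include the exon remained in every Usp7 cKO library. The bin of exon 7, the part of the gene in which DEXSeq counts exon reads, fell from 2.53 ± 0.236% to 1.03 ± 0.150% of the gene's bin counts (log2 change relative to the gene -1.29, edgeR adjusted p = 2.4e-18).

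Rian, a long non-coding RNA of the imprinted Dlk1-Dio3 region that hosts small nucleolar RNAs, held both a falling and a rising pairing. Its gene level rose from 75.6 ± 8.45 to 142 ± 20.7 TPM (log2 0.91, SE 0.0922, limma adjusted p = 0.000178). The pairing around the 88-base exon (chr12:109640328-109643414) took 10.2, 13.4, 12.8, 11.3 and 11.9% of its cluster in Usp7 WT replicates 1 to 5 and 6.48, 5.00, 5.15, 4.27 and 4.45% in Usp7 cKO replicates 1 to 5. Every Usp7 cKO library lay below every Usp7 WT library, and the share fell by 1.23 on the log2 scale (edgeR adjusted p = 0.00032). DESeq2 gave -1.24 (SE 0.138, adjusted p = 5.3e-15), and edgeR and DESeq2 each called it without any single library. In reads, Usp7 WT libraries had 108 to 125 of the pairing and 393 to 536 of the 2 flanking introns, against 70 to 115 and 585 to 1099 for Usp7 cKO. Percent skipping of the exon was 21.3 ± 2.05% and 9.64 ± 1.56%.

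The second called Rian pairing (chr12:109655934-109658053, around the 44-base exon) was present in some libraries and absent in others. It had 0 reads in Usp7 WT replicates 1 to 4 and 104 in replicate 5. In Usp7 cKO it had 305, 296, 429 and 319 reads in replicates 1 to 4 and 0 in replicate 5, although the cluster held 5023 to 12890 reads in every library. The groups therefore overlapped at 0, with 0.386 ± 0.863% and 2.45 ± 1.39% of the cluster (log2 2.79, edgeR adjusted p = 0.00465). edgeR kept the call in 4 of 10 fits that left out 1 library, with adjusted p from 4.1e-07 to 0.152. It lost it without Usp7 WT replicate 1 (0.0828), 2 (0.0573), 3 (0.152) or 4 (0.138) and without Usp7 cKO replicate 2 (0.0557) or 3 (0.102). It was also lost without the 2 discordant libraries. DESeq2 did not call it (adjusted p = 0.962), except without Usp7 WT replicate 5 (0.0187). The annotated intron from a later end of this exon (109656840) took 19.5 ± 0.368% of the cluster in Usp7 WT and 18.7 ± 0.452% in Usp7 cKO. From the end of the 44-base form the annotated intron took 5.60 ± 0.675% and 5.12 ± 0.472%, so that form was the less used.

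Tnrc6c, which encodes a GW182-family protein of microRNA silencing, showed the same kind of unevenness. The pairing around its 174-base exon (chr11:117740009-117742927) had 2, 2, 3, 4 and 0 reads in Usp7 WT replicates 1 to 5 and 0, 33, 3, 34 and 19 in Usp7 cKO replicates 1 to 5. Its share was 0.618 ± 0.376% and 6.85 ± 6.44% (log2 3.29, edgeR adjusted p = 0.0357). The groups overlapped because of Usp7 cKO replicate 1, which had no read. Replicate 3, at 1.01%, lay just above the highest Usp7 WT library at 0.907%. edgeR kept the call in 2 of 10 fits that left out 1 library, with adjusted p up to 0.907 without Usp7 cKO replicate 4. The other losses were without any Usp7 WT replicate (0.0832 to 0.301) and without Usp7 cKO replicate 2 (0.539) or 5 (0.191), and DESeq2 did not call the pairing (adjusted p = 0.186), except without Usp7 cKO replicate 1 (2.6e-05) and without the 2 discordant libraries (8.0e-05).

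The remaining call joins sites of different genes, from Scd3 to Scd2 (chr19:44235976-44301212), a family of stearoyl-CoA desaturases that introduce a double bond into fatty acids. It had 1167 reads in Usp7 WT replicate 1 and 0 to 2 in each of the other 9 libraries, so the call (edgeR adjusted p = 0.0243) rests on 1 library and the pairing was too rare to be tested without it. The call was also lost without replicate 3 or 4 of the Usp7 WT or 1, 2, 3 or 5 of the Usp7 cKO animals (edgeR adjusted p from 0.0704 to 0.345). DESeq2 gave it no adjusted p. A second pairing in this family, from Scd2 to Scd4 (chr19:44298170-44338910), was 37.7 to 39.6% of its cluster in Usp7 WT replicates 1, 3 and 4 and 38.1 to 41.3% in Usp7 cKO replicates 1, 2 and 4. It had no read in Usp7 WT replicates 2 and 5 or in Usp7 cKO replicates 3 and 5, although each of those clusters held 1478 reads or more. These genes are close copies of each other, so the assignment of their reads is uncertain, and gene-level Scd3 was 7.74 ± 0.978 and 8.01 ± 0.759 TPM (limma adjusted p = 0.806).

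Other pairings were likewise present in some libraries only. Chosen after the values were seen, the count of introns with 0 reads in 1 library and over 20 in another was 90 of 1874 unannotated pairings (4.80%) and 156 of 22163 annotated introns (0.704%). Introns with a cryptic 5′ site gave 4.16%, those with a cryptic 3′ site 5.17%, unanchored ones 14.4% and those of unknown strand 45.5%. Among unannotated pairings it was 10 of the 63 that join different genes (15.9%), 73 of the 1309 exon-skipping ones (5.58%) and 6 of the 286 listed in GENCODE M21 (2.10%). Firre, a long non-coding RNA of the X chromosome, held 5 of them among its 8 unannotated pairings.

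**Figure D5:**
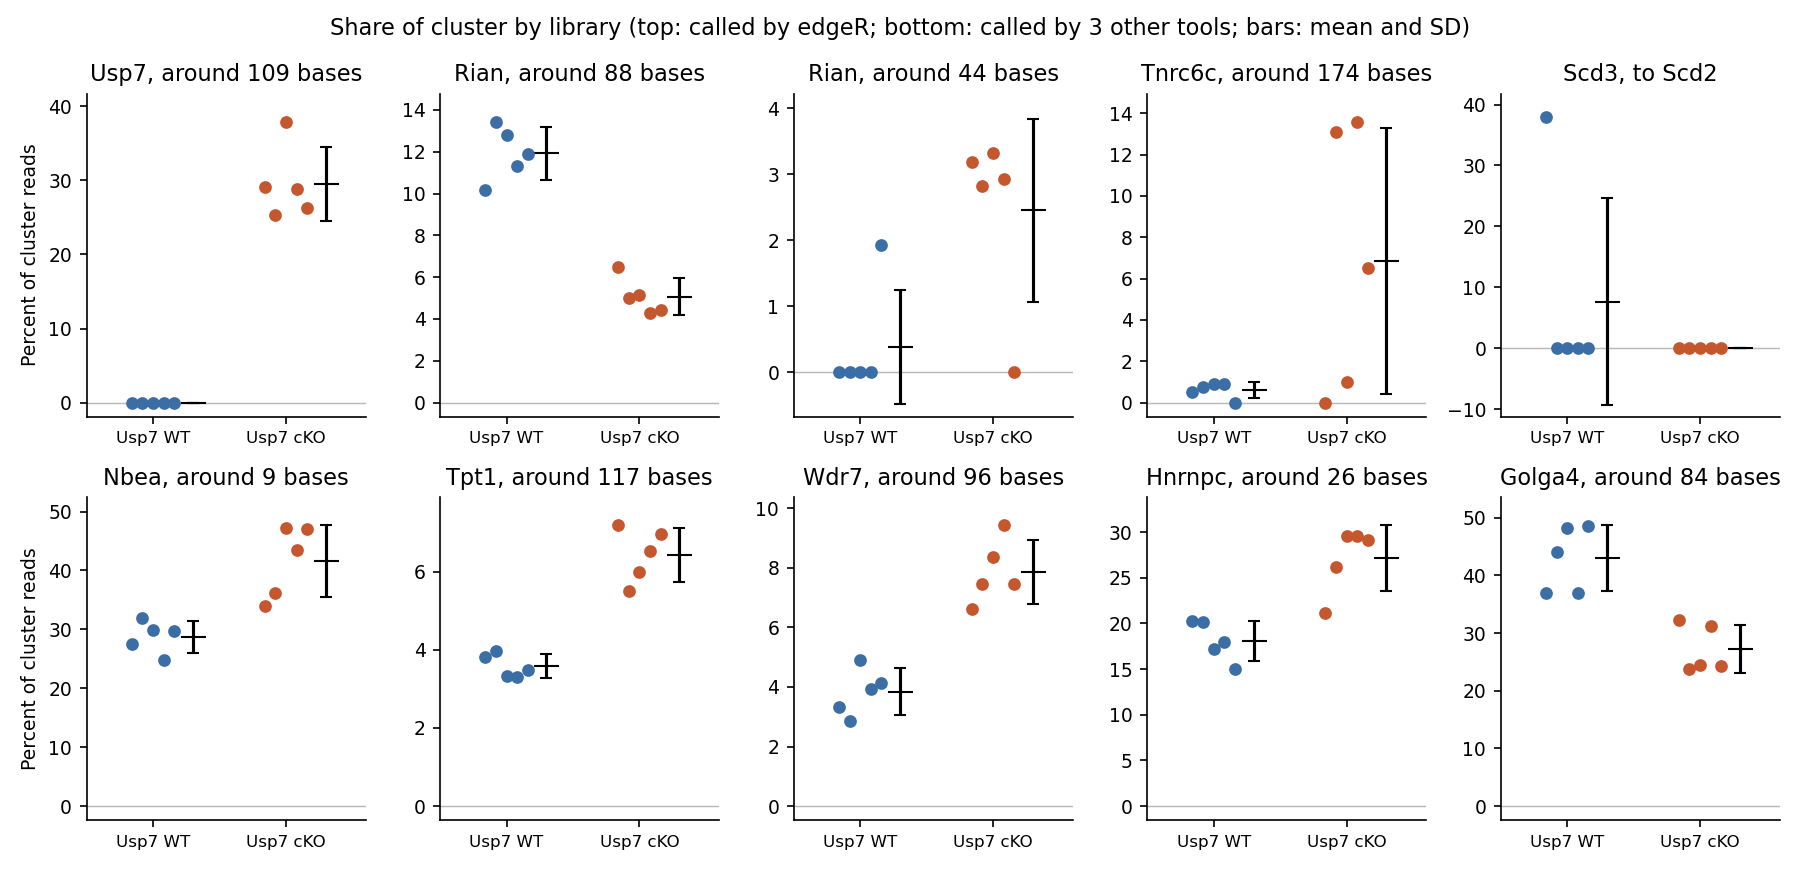
Percent of cluster of 10 unannotated pairings in each library, with the mean and SD beside each group. The top row holds the 5 called by edgeR, of which Rian (44 bases), Tnrc6c and Scd3 have groups that overlap, and the bottom row holds 5 called by DESeq2, limma and edgeR with cluster totals as offset together, whose groups do not overlap.

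Other tests of the same counts called more unannotated pairings. DESeq2 with cluster totals as normalization factors called 28 of 1735 (1.61%), 15 higher and 13 lower, against 1.23% of all introns. Its count was 11 to 26 with 1 library left out, and 11 to 16 without any 1 of the Usp7 WT animals (12, 13, 16, 15 and 11 for replicates 1 to 5) or without Usp7 cKO replicate 3, 4 or 5 (16, 13 and 14). limma's voom with diffSplice called 16 (0.882% of all introns) and edgeR with cluster totals as offset called 16 (0.787% of all introns). All 3 called 7 (0.387% of all introns), and at least 2 of the 3 called 18 (0.892% of all introns). The 7 were those of Usp7, Rian (88 bases), Tpt1, Nbea, Wdr7, Hnrnpc and Golga4. They and 10 of the other 11 are described because several tools called them, a choice made after their values were seen, and 16 of the 18 were not called by edgeR's main test.

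Nbea encodes neurobeachin, a large protein of vesicle trafficking at the synapse, and its 9-base microexon was skipped more in Usp7 cKO by DESeq2. The pairing took 27.6, 31.8, 29.96, 24.8 and 29.6% of the cluster in Usp7 WT replicates 1 to 5 and 34.0, 36.2, 47.1, 43.5 and 47.0% in Usp7 cKO replicates 1 to 5. The groups did not overlap (DESeq2 log2 0.53, SE 0.110, adjusted p = 0.000606, edgeR adjusted p = 0.694). Percent skipping was 44.6 ± 3.29% and 58.5 ± 6.20%, so both forms were common in both genotypes. The bin of the microexon itself fell from 0.482 ± 0.0673% to 0.346 ± 0.0622% of the gene's bin counts (log2 -0.49, edgeR adjusted p = 0.00924). Reads that cover these 9 bases also cross its splice sites, so the bin and the introns can share reads. This bin call was lost without replicate 1 or 2 of the Usp7 WT or 4 or 5 of the Usp7 cKO animals and without the 2 discordant libraries (adjusted p up to 0.113). Gene-level Nbea was 77.6 ± 4.83 and 71.4 ± 2.29 TPM (limma adjusted p = 0.165).

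Tpt1 encodes a small, abundant protein also known as translationally controlled tumour protein, and its 117-base exon (chr14:75847244-75847360) was skipped more in Usp7 cKO by DESeq2. The share was 3.81, 3.98, 3.33, 3.29 and 3.49% in Usp7 WT replicates 1 to 5 and 7.19, 5.50, 5.99, 6.52 and 6.95% in Usp7 cKO replicates 1 to 5. The groups were apart (DESeq2 log2 0.84, SE 0.135, adjusted p = 4.4e-07, edgeR adjusted p = 0.235). The exon's bin held 8.43 ± 0.708% and 8.34 ± 0.346% of the gene's bin counts (log2 -0.01, edgeR adjusted p = 1.0), so the exon reads showed no such difference at their precision.

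Wdr7 encodes a subunit of the rabconnectin complex, which regulates the proton pump of synaptic vesicles, and its pairing around a 96-base exon is one that GENCODE M21 lists. It took 2.86 to 4.91% of its cluster in Usp7 WT against 6.60 to 9.43% in Usp7 cKO (3.84 ± 0.782% and 7.86 ± 1.08%, DESeq2 adjusted p = 0.00184, edgeR adjusted p = 0.383). In the nuclear RNA-binding protein gene Hnrnpc, a pairing also listed there took 15.0 to 20.3% and 21.1 to 29.6% (18.1 ± 2.20% and 27.1 ± 3.63%, DESeq2 adjusted p = 0.0141, edgeR adjusted p = 0.943). In Golga4, which encodes a tether of the trans-Golgi, a listed pairing took 36.9 to 48.6% and 23.8 to 32.2% (43.0 ± 5.75% and 27.2 ± 4.10%, DESeq2 adjusted p = 0.0446, edgeR adjusted p = 0.965). The groups did not overlap for any of these 3. DESeq2 kept the calls of Usp7, Rian (88 bases), Tpt1, Nbea and Wdr7 in all 10 fits that left out 1 library, that of Hnrnpc in 5 and that of Golga4 in 1. The Hnrnpc call was lost without replicate 3 or 5 of the Usp7 WT or 3, 4 or 5 of the Usp7 cKO animals, and the Golga4 call stood only without replicate 4 of the Usp7 WT animals. Golga4 was also lost without the 2 discordant libraries (DESeq2 adjusted p = 0.315).

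Among the 35 skipped microexons, 3 were called by DESeq2, none by edgeR at an adjusted p under 0.05, and the mean share was higher in Usp7 cKO for 23 and lower for 12. The unadjusted edgeR p was under 0.05 for 6 of the 35. Over all unannotated pairings DESeq2 called 1.61% and 7.95% had an unadjusted edgeR p under 0.05, and over all introns the shares were 1.23% and 3.52%. The calls of DESeq2 included Nbea (above) and the 18-base microexon of Clasp2, which encodes a protein that binds the growing ends of microtubules. The Clasp2 pairing (chr9:113858604-113862186) moved opposite to that of Nbea, from 1.26 ± 0.220% to 0.495 ± 0.315%, with no overlap (DESeq2 adjusted p = 0.0286, edgeR adjusted p = 0.437). It rests on 25 to 34 reads per Usp7 WT library and 4 to 21 per Usp7 cKO library. The exon bin of this microexon held 2.34 ± 0.123% and 2.51 ± 0.149% of the gene's bin counts (edgeR adjusted p = 1.0). DESeq2 kept the Clasp2 call only without Usp7 cKO replicate 1 or 5, and lost it without the 2 discordant libraries (0.0946).

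Lower shares in Usp7 cKO were called by at least 2 of these tools for 6 further pairings. Ubn1 encodes a subunit of the HIRA chaperone complex for histone H3.3, and the pairing around its 90-base exon went from 35.9 ± 6.20% to 18.3 ± 4.39% of the cluster (DESeq2 adjusted p = 0.00234). Sh2d5, which encodes an adaptor protein of the synapse, went from 9.95 ± 1.31% to 3.04 ± 0.664% (DESeq2 adjusted p = 0.00626), on 14 to 22 reads per Usp7 WT library and 4 to 10 per Usp7 cKO library. Unc80 encodes a subunit of the sodium leak channel complex, and the shares of the pairings around its exons of 204 and 200 bases went from 66.4 ± 3.97% to 52.1 ± 5.03% and from 13.1 ± 1.12% to 8.53 ± 2.77% (DESeq2 adjusted p = 0.0321 and 0.0267). Ank2 (ankyrin-B, which links membrane proteins to spectrin) and Synj1 (synaptojanin, a lipid phosphatase of vesicle recycling) each had a pairing around 2 exons, at 7.27 ± 0.690% and 5.27 ± 0.617% for Ank2 and 3.23 ± 0.223% and 1.76 ± 0.736% for Synj1 (DESeq2 adjusted p = 0.00709 and 0.0141). The groups did not overlap in these except for the 200-base exon of Unc80. GENCODE M21 lists the Ubn1 pairing and the one around the 204-base exon of Unc80. DESeq2 kept the Ubn1 call in all 10 fits that left out 1 library, and lost that of Sh2d5 without replicate 5 of the Usp7 WT animals. It lost Ank2 without replicate 2 or 3 of the Usp7 WT or 1 or 4 of the Usp7 cKO animals, and Synj1 without replicate 1, 2 or 5 of the Usp7 WT or 4 or 5 of the Usp7 cKO animals. The Unc80 calls stood in 2 fits for the 204-base exon, without replicate 3 of the Usp7 WT or 4 of the Usp7 cKO animals, and in 3 for the 200-base exon, without replicate 3 of the Usp7 WT or 1 or 2 of the Usp7 cKO animals. Of these 6, Synj1 alone was called without the 2 discordant libraries (DESeq2 adjusted p = 0.0139).

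Higher shares were called by at least 2 of these tools in 3 further genes, without overlap of the groups. GENCODE M21 lists the pairings of Agap2 and Atp11b among them. Agap2 encodes a GTPase-activating protein for Arf, and its pairing rose from 1.67 ± 0.191% to 2.95 ± 0.0931% of the cluster by DESeq2 (adjusted p = 0.0322), while its reads stayed at 25 to 33 and 23 to 40 and the gene level fell from 1257 ± 98.8 to 869 ± 34.5 TPM (limma adjusted p = 0.000189). The septin gene Sept11, written as a date in the deposited table, went from 3.89 ± 1.05% to 8.02 ± 1.80% (DESeq2 adjusted p = 0.0495). Atp11b, a phospholipid flippase gene, went from 20.2 ± 3.33% to 27.2 ± 1.57% (DESeq2 adjusted p = 0.0180), and its gene level rose from 39.9 ± 4.21 to 57.2 ± 11.5 TPM (limma adjusted p = 0.00902). DESeq2 kept the Atp11b call only without replicate 2 or 3 of the Usp7 WT or 4 of the Usp7 cKO animals, and those of Agap2 and Sept11 in none of the 10 fits that left out 1 library.

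The most used unannotated pairings were not called by edgeR, which has little room to call a pairing that makes up most of its cluster. Of the 5 with the largest mean share and a cluster of at least 50 reads, 4 lie in Socs5, a suppressor of cytokine signalling, the actin regulator Inf2, the glucosidase gene Ganab and Epn1, which encodes the endocytic adaptor epsin. Socs5 was at 94.3 ± 1.08% and 92.7 ± 3.13%, Inf2 at 94.7 ± 3.15% and 91.5 ± 2.92%, and Ganab at 83.0 ± 7.52% and 87.7 ± 4.25%. These 3 are listed in GENCODE M21. The Epn1 pairing around a 75-base exon (chr7:5092965-5093899) is not listed there, had 1514 to 2105 reads per library and took 87.5 ± 1.49% and 86.4 ± 0.669%, so the skipped form was the main form in both genotypes. The fifth joins sites of different genes into Sp140, at 81.2 to 84.7% in Usp7 WT. In Usp7 cKO replicate 3 was at 2.47% and the other 4 libraries were at 82.0 to 89.4%. A listed pairing of Ank2 (chr3:126923971-126929722) had 1305 to 1533 reads per library and took 74.2 ± 1.75% and 75.6 ± 2.49%. The edgeR adjusted p was 1.0 for each of these 6. That test sets a pairing against a cluster total it mostly makes up, so it says little here. limma voom with diffSplice, which sets a pairing against the other introns of its cluster, called none of the 6 (adjusted p from 0.667 to 0.856).

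Unannotated pairings in genes of neuronal function were few per list and mostly not called. Among presynaptic genes 15 of 38 had 27 pairings and none of the 26 tested was called by edgeR. The same held for 32 pairings in 17 of 33 postsynaptic genes (29 tested), 36 in 22 of 60 channel and receptor genes (35 tested), and 41 in 17 of 47 adhesion and guidance genes (39 tested). It also held for 40 in 17 of 41 cytoskeletal genes (35 tested) and 31 in 23 of 102 splicing regulators (28 tested). Of 10 pairings in 5 of 28 genes of ubiquitin ligases and USP7 partners only that of Usp7 was called. The unadjusted edgeR p was under 0.05 for 2 presynaptic, 4 postsynaptic, 6 channel, 3 adhesion, 2 cytoskeletal and 3 splicing-regulator pairings. DESeq2 called 2 presynaptic, 1 postsynaptic, no channel, 1 adhesion, 2 cytoskeletal and 1 splicing-regulator pairing. Over all unannotated pairings tested these shares were 7.95% (unadjusted edgeR p) and 1.61% (DESeq2), and over all introns 3.52% and 1.23%.

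The pairings with the smallest p in these lists were as follows. In Rims1 a pairing around 3 exons had 162 to 244 reads in Usp7 WT against 70 to 101 in Usp7 cKO, and its share was 12.6 ± 1.34% and 9.04 ± 1.58% (edgeR adjusted p = 1.0, DESeq2 adjusted p = 0.0143). DESeq2 lost this call without replicate 3 or 5 of the Usp7 WT or 1, 3 or 4 of the Usp7 cKO animals and without the 2 discordant libraries. Rims1, which organises the site of transmitter release, fell in level from 295 ± 23.8 to 189 ± 13.2 TPM (limma adjusted p = 0.000206). Pairings in the postsynaptic scaffold genes Shank2 and Shank3 took 0.124 ± 0.225% and 0.618 ± 0.490%, and 1.75 ± 0.713% and 3.26 ± 1.32%, with overlap (edgeR adjusted p = 0.108 and 0.838). The calcium channel genes Cacnb3 and Cacna1b had 0.311 ± 0.190% and 0.939 ± 0.185%, and 6.90 ± 3.78% and 12.7 ± 5.11% (edgeR adjusted p = 0.786 and 0.977). Each of these 4 means was higher in Usp7 cKO and none passed a test. GENCODE M21 lists the Cacnb3 pairing. For Nrxn3 the values were 0.203 ± 0.0803% and 0.71 ± 0.555%, for the splicing regulator Celf5 0.499 ± 0.209% and 0.149 ± 0.149%, and for the ubiquitin ligase Huwe1 1.30 ± 0.630% and 0.763 ± 0.568% (edgeR adjusted p = 0.838, 1.0 and 1.0).

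Exon bins gave a second readout of the same libraries, which is not independent of the intron counts. A read spliced into an exon can count for its bin as well as for a flanking intron. The skipped exon was exactly 1 DEXSeq bin for 892 pairings, and 851 such bins were tested. Of these 5 were called by edgeR (0.588%), against 0.430% of 228098 bins tested (0.331% higher and 0.0986% lower). The called bins were those of Usp7 and Nbea (above), both lower, and 3 that were higher in Usp7 cKO. The 3 were a 42-base exon of the calcium pump gene Atp2b2 (log2 0.69, adjusted p = 3.1e-05), a 53-base exon of the non-coding RNA Snhg14 (log2 0.76, adjusted p = 0.000743) and a 254-base exon of Pdzd4 (log2 0.45, adjusted p = 0.0490). The pairings around these 3 exons took 3.10 ± 0.109% and 2.84 ± 0.229%, 15.3 ± 14.0% and 13.2 ± 3.95%, and 1.24 ± 0.440% and 0.843 ± 0.489% of their clusters, and none was called (edgeR adjusted p = 1.0 for each). The count of called bins was 3 without replicate 1 of the Usp7 WT or 4 or 5 of the Usp7 cKO animals and without the 2 discordant libraries. The Pdzd4 bin was called in 1 of 10 fits that left out 1 library, without replicate 2 of the Usp7 WT animals.

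The levels of the genes that hold an unannotated pairing moved in both directions. Of 1384 such genes tested, 131 rose (9.47%) and 168 fell (12.1%) in Usp7 cKO, against 9.22% and 4.67% of all 27580 genes tested (limma). Their median change was -0.01 on the log2 scale against 0.06 for all genes. Without the 2 discordant libraries 59 rose and 115 fell, against 4.75% and 3.14% of all genes. Of 7 markers of glutamatergic neurons 6 were lower in Usp7 cKO. The 7 had a summed level of 3084 to 3448 TPM in Usp7 WT against 2212 to 2679 TPM in Usp7 cKO. The largest fall among them was that of Neurod6, also called NEX as in NEX-cre, from a mean of 52.1 to 24.2 TPM (log2 -1.10). Whether the Cre allele itself lowers Neurod6 was not tested, so it is a doubtful marker here. The other called ones had log2 changes from -0.32 (Camk2a) to -0.59 (Tbr1). Of 5 microglial markers 4 were lower, with sums of 134 to 155 and 93.2 to 109 TPM. Of 6 markers of GABAergic neurons 1 was lower, of 5 of astrocytes 1 was higher, and none of 5 of oligodendrocytes was called. None of these lists had a marker at 0, the lowest mean being 3.33 TPM for microglial Aif1 in Usp7 cKO. Their part in the results was not tested.

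Of 100 splicing regulator and spliceosome genes tested, 6 rose and 8 fell, with a median change of 0.02. Over all genes tested 13.9% were called (9.22% higher, 4.67% lower) and the median was 0.06, so the share of regulators called was near that of all genes. Those that fell included the neuronal splicing factors Rbfox3 (204 ± 11.1 to 162 ± 13.4 TPM), Rbfox1 (278 ± 20.8 to 220 ± 7.79 TPM), Khdrbs3 (158 ± 11.1 to 124 ± 12.3 TPM) and Nova1 (19.8 ± 1.30 to 16.2 ± 0.733 TPM), with limma adjusted p from 0.00292 to 0.0158. Hnrnpc fell from 71.6 ± 7.26 to 59.2 ± 0.916 TPM (limma adjusted p = 0.0275). Among those that rose were Srrm4, the activator of neural microexons, from 36.7 ± 4.11 to 44.9 ± 4.82 TPM (limma adjusted p = 0.0383), and Ptbp1, a repressor of neural exons, from 18.2 ± 1.55 to 23.5 ± 3.90 TPM (limma adjusted p = 0.0369). The Rbfox3, Rbfox1, Khdrbs3 and Nova1 calls were kept in all 10 fits that left out 1 library, while that of Hnrnpc stood only without replicate 1, 3 or 4 of the Usp7 WT animals, that of Srrm4 only without replicate 5 of the Usp7 WT animals and that of Ptbp1 only without replicate 4 or 5 of the Usp7 WT or 2 of the Usp7 cKO animals. Without the 2 discordant libraries Rbfox3, Rbfox1 and Khdrbs3 were the only 3 called. The count of 14 was 7 to 9 without replicate 1 or 2 of the Usp7 WT or 2, 3, 4 or 5 of the Usp7 cKO animals. The counts also depend on scaling. With TPM rescaled by size factors the same list gave 6 higher and 23 lower, and the genes with an unannotated pairing 141 higher and 391 lower. The same rescaling gave 9.60% higher and 10.9% lower over all genes, with a median of 0.01.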

How the data were processed

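RNA-seq of the cortex of 10 mice, 5 a group, was analysed from the deposited tables. The authors' files hold counts of spliced reads per intron with leafcutter's clusters, counts of reads per DEXSeq bin with the authors' log2 fold change, which was not used for any result, and gene levels as TPM, per the file headers. STAR 2.7.9a, SAMtools 1.10, Subread, featureCounts and GRCm38 are named in the submitters' processing notes, with no role given. No source used here gives the settings of leafcutter, the gene lengths behind TPM or whether counting used strand, so reads of overlapping and antisense genes cannot be told apart. Groups, replicate numbers and labelled sex were taken from the labels, and 0 columns stayed unmapped. The counts of Usp7 WT replicate 1 in the intron table are all even and were halved.

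Introns with a mean count of at least 5, in clusters with at least 2 such introns, were tested with edgeR 4.0.16 (TMM, glmQLFit, diffSpliceDGE, labelled sex as covariate), which gives no standard error here. Its cluster calls use the Simes p. Bins with a mean count of at least 10 were tested in the same way within their gene. Gene levels were tested with limma 3.58.1 (trend, robust) on log2(TPM + 0.5) over genes whose mean TPM reached 0.5. A fold on that scale understates the change of low genes. All tables were fitted whole, and Benjamini-Hochberg adjusted p under 0.05 were called. Class totals were compared by exact two-sided permutation over all regroupings of 5 against 5. Alternatives were DESeq2 1.42.0 and edgeR with cluster totals, limma voom with diffSplice, other scalings, filters and covariates, a replicate block, and fits without each library or without the 2 discordant ones. R 4.3.3 and Python 3.11.15 were used. Of the fits, only edgeR's main intron test was tried on simulated counts, with changes put into introns with a mean count of at least 20.

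Splice sites were matched to the introns and exons of GENCODE M21, GRCm38, and sequences were read from its transcripts. The limit for a count of 0 is 3 counts over the group's cluster reads and covers counting error only, since PCR copies cannot be recognised. The labels make each library 1 animal. Intron coordinates are as deposited, where the first is the last base of the left exon and the second the first base of the right exon. Named with values were all pairings of Usp7 clusters, those called by edgeR, the 5 with the largest share in clusters of at least 50 reads on average, the 3 uncalled ones with the most reads, and the 2 with the smallest p per gene list. Pairings called by other tools, and those present in some libraries only, were added after their values were seen. The members, gene lists and marker lists were chosen with earlier results of these data known. Some results are not reported here.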

Additional observations from a re-analysis of the deposited data

Results flagged for a closer look

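In 39 sets of 5 library values examined, 5 had a library further from the others than Dixon's 95% critical value of 0.71 allows for 5 samples. For independent, normally distributed values about 1 in 20 such sets would pass it. The sets here include shares with values of 0, so the 5 of 39 cannot be set against that rate. The pairing into Sp140 was at 2.47% of its cluster in Usp7 cKO replicate 3, far below the other 4 Usp7 cKO libraries. The Rian pairing around the 44-base exon was at 1.93% in Usp7 WT replicate 5, where the other Usp7 WT libraries had none, and at 0% in Usp7 cKO replicate 5, where the other Usp7 cKO libraries had reads. The pairing from Scd3 to Scd2 was at 38.0% in Usp7 WT replicate 1 and near 0 in the other Usp7 WT libraries. Unannotated pairings took 4.46% of the reads of their clusters in Usp7 WT replicate 1, above the other 4 Usp7 WT libraries, and this is also the library whose intron counts were deposited doubled.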

How the results depend on the processing

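The number of unannotated pairings called by edgeR was 5, and was 28 by DESeq2, 16 by edgeR with cluster totals as offset and 16 by limma voom. It was 2 with a mean count of at least 20, and 2 to 6 with 1 library left out. RLE scaling, the lower count minimums, other covariates and the counts of Usp7 WT replicate 1 as deposited gave 5 or 6. The DESeq2 count of 28 was 16 with the replicate block, 15 without the 2 discordant libraries, and 11 to 26 with 1 library left out. Clusters called were 6, 2 with a mean count of at least 20, and 4 to 7 with 1 library left out. Called exon bins were 5, 3 without the 2 discordant libraries, and 3 to 4 with 1 library left out. Genes with an unannotated pairing that changed in level were 299, 532 after rescaling, 174 without the 2 discordant libraries, and 227 to 282 with 1 library left out. The regulators were 14, then 29, 3 and 7 to 13.

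The class differences, in percentage points of Usp7 cKO minus Usp7 WT, passed no test under any setting run. The difference in mean share was 0.0597 without the 2 discordant libraries, 0.0612 over pairings not listed in GENCODE M21, and -0.101 to 0.0491 with 1 library left out, changing sign without Usp7 WT replicate 1 (0.0382) or Usp7 cKO replicate 1 (0.0491). For the percent of spliced reads it was -0.00785 to 0.00801, changing sign without Usp7 WT replicate 1 (0.00801) or Usp7 cKO replicate 1 (0.00314). For the percent of the clusters' reads it was -0.0822 to -0.0288. The cause of these moves was not tested.

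With the last number of each title as a replicate block, edgeR called 6 unannotated pairings (4 higher, 2 lower), 5 clusters, 6 bins, 343 genes with an unannotated pairing and 19 regulators. Deviations from the group means correlated at -0.0195 to 0.0624 (median 0.00915) for the 9 pairs of libraries with the same number. For the 16 others the range was -0.0340 to 0.0224 (median -0.00421). All lie near 0, so they do not show that the numbers pair the animals, and they cannot exclude it. Of the DESeq2 calls described, Golga4 (adjusted p = 0.123), Unc80 (0.0871 for the 204-base exon, 0.0569 for the 200-base exon), Agap2 (0.0871), Sept11 (0.125) and Atp11b (0.0613) were lost under the block. The median unannotated pairing had 9.4 reads per library, which limits the precision of its share.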
